A study of Mus musculus with 30 samples.

Results

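The receptors for interleukin 3, granulocyte-macrophage colony-stimulating factor (GM-CSF) and interleukin 5 share the beta common chain, and the 5 genes that encode the chains of this family in the mouse were followed across 18 RNA libraries. They were taken by symbol from the 50686 genes counted: Csf2rb, Csf2rb2, Csf2ra, Il3ra and Il5ra. All 5 were found and had counts, and 4 of them passed the filter on low counts in HPC7 and 5 in HPCLSK. The libraries come from HPC7 and HPCLSK, mouse lines of haematopoietic stem and progenitor cells, which the RNA labels assign to strain 129SV and strain C57BL/6N. Each line was transduced with a retroviral empty vector (EV, named after dsRed), with STAT3, or with STAT3 Y640F, an SH2-domain change known to activate this cytokine-regulated transcription factor. Each of the 6 groups has 3 libraries, described by the submitters as technical replicates, so that the p-values below measure only the spread between libraries and may not cover separate cultures. All cells were grown, otherwise untreated, in IMDM with serum and stem cell factor, HPCLSK on agarose, and the labels name no added IL-3, GM-CSF or IL-5. The series also has 9 chromatin immunoprecipitation samples and 3 inputs of HPC7, which were not analysed here. The chromatin immunoprecipitation samples of HPC7 are labelled C57BL/6N, so the labels conflict on the strain of this line.

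A private alpha chain gives each receptor its ligand: Il3ra encodes that of IL-3, Csf2ra that of GM-CSF and Il5ra that of IL-5. The alpha chains bind weakly by themselves, and the common beta chain encoded by Csf2rb raises the affinity and carries the signal through JAK2 to STAT5 and to the RAS and PI3-kinase pathways. Mice have an additional beta chain, encoded by Csf2rb2, which works with IL-3 alone. GM-CSF and IL-3 support myeloid progenitors and their granulocyte, macrophage and mast cell progeny, and IL-5 supports eosinophils.

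Csf2rb (ENSMUSG00000071713.4, GRCm38 chr15:78325990-78351000, + strand) and Csf2rb2 (ENSMUSG00000071714.5, chr15:78282517-78305603, − strand) are neighbours that point away from each other, with 20387 bases between their annotated starts. Csf2ra (ENSMUSG00000059326.6) lies at chr19:61224402-61228418 on the − strand, Il3ra (ENSMUSG00000068758.7) at chr14:14346495-14355490 on the + strand and Il5ra (ENSMUSG00000005364.11) at chr6:106710357-106749037 on the − strand. RefSeq's promoter table (GRCm38.p6) matched 4 of the 5 genes. The 250 bases before the RefSeq start are shown for 3 of them, chosen because Csf2rb2 and Csf2ra had the largest increases with Y640F in the family, in HPC7 and HPCLSK respectively, and Il5ra was called lower with it in both lines. Capitals mark matches on either strand to TTCNNNGAA, the palindrome that STAT dimers bind, to GAGGAA, a core bound by PU.1 and other ETS factors, and to AGATAA, bound by GATA factors. The windows are chr15:78305722-78305971 (−) for Csf2rb2, chr19:61228419-61228668 (−) for Csf2ra and chr6:106749038-106749287 (−) for Il5ra, each read 5′ to 3′ on the gene's strand.
Csf2rb2: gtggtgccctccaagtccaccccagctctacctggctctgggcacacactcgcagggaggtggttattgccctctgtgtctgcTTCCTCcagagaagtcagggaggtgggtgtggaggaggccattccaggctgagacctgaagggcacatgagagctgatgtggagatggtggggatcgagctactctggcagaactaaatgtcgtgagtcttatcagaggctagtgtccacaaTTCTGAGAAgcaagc
Csf2ra: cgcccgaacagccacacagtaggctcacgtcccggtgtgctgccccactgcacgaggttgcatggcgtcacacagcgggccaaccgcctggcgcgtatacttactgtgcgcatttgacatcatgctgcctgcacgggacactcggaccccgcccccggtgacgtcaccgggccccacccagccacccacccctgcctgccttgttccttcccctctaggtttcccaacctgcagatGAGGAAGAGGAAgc
Il5ra: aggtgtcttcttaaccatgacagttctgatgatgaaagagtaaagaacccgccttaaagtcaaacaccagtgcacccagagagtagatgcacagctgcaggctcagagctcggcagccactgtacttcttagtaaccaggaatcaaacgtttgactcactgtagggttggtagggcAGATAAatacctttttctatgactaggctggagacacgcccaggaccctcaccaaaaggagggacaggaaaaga

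Csf2rb2 was the only one of the 4 matched members with a TTCNNNGAA match in the RefSeq window of 300 bases (250 before and 50 after the start). The match, TTCTGAGAA, covers bases 15 to 7 before the RefSeq start, which itself lies 118 bases upstream of the GENCODE gene start used for counting. The same motif was found in 8.3% of the 32851 promoters of that length. Csf2ra holds 2 adjacent GAGGAA matches at bases 14 to 9 and 8 to 3 before its start, and Csf2rb2 and Il5ra also hold this motif, which 28.3% of promoters have. Il5ra alone has AGATAA, at bases 74 to 69 before the start, as do 11.2% of promoters. The Il3ra window holds none of the 3 motifs. It is 72.4% G or C in its 250 upstream bases, against 48.0% for Il5ra and a median of 52.4% over all promoters. These matches describe the sequence and are not measured binding sites.

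Library totals ran from 23127740 to 38556669 counts in HPC7 and from 9537258 to 22154763 in HPCLSK. The file headers place all HPC7 libraries on 1 sequencing run and all HPCLSK libraries on another. Line, labelled strain, culture plate and run therefore cannot be told apart. Levels are given as CPM, counts relative to the library total, after TMM scaling over the 18 libraries. A gene was called when the Benjamini-Hochberg adjusted p of edgeR's quasi-likelihood test was under 0.05 and the absolute log2 fold change was at least 1. The comparisons with EV in a line share the same 3 EV libraries. In HPCLSK, replicate 1 of EV and replicate 1 of Y640F stood apart from their groups: chi-square divided by its degrees of freedom, over gene counts, was 8.66 to 29.4 in the 4 pairs with them and 2.61 to 3.49 in the 2 pairs without them. The 3 HPC7 EV pairs also differed widely, at 11.1 to 21.9. Log2 fold changes of the members were also computed without the HPCLSK pair, replicate 1 of EV and replicate 1 of Y640F. No member's call changed, and the values that moved by over 1.5 times, all of Il3ra, are given with it. Leaving out single HPC7 EV libraries changed a call only for the Csf2ra line difference of STAT3 against EV, given below. Marker lists, neighbours, ligands, per-length levels with their alpha chain shares and ratios, and correlations were not recomputed without any of these libraries. In RNA from whole cultures, fewer cells of a type and less RNA per cell cannot be told apart.

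Stat3 was read first as a check of the vectors. In HPC7 its level was 225 ± 10.1 CPM (SD, n = 3) with EV, 996 ± 17.1 for STAT3 and 669 ± 20.9 for Y640F. In HPCLSK it was 354 ± 12.4, 599 ± 42.2 and 1900 ± 45.0 CPM in the same order. Stat3 RNA was above EV in every library of both vectors, but the 2 forms were at unequal levels. Y640F cells had less of it than STAT3 cells in HPC7, and more in HPCLSK. For STAT3 against EV the log2 fold change of Stat3 was 2.15 in HPC7 and 0.76 in HPCLSK, the latter not called. Its line difference (HPCLSK minus HPC7) for Y640F against STAT3 was 2.24. The form of STAT3 and its RNA level therefore cannot be told apart where Y640F is compared with STAT3.

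**Figure D1:**
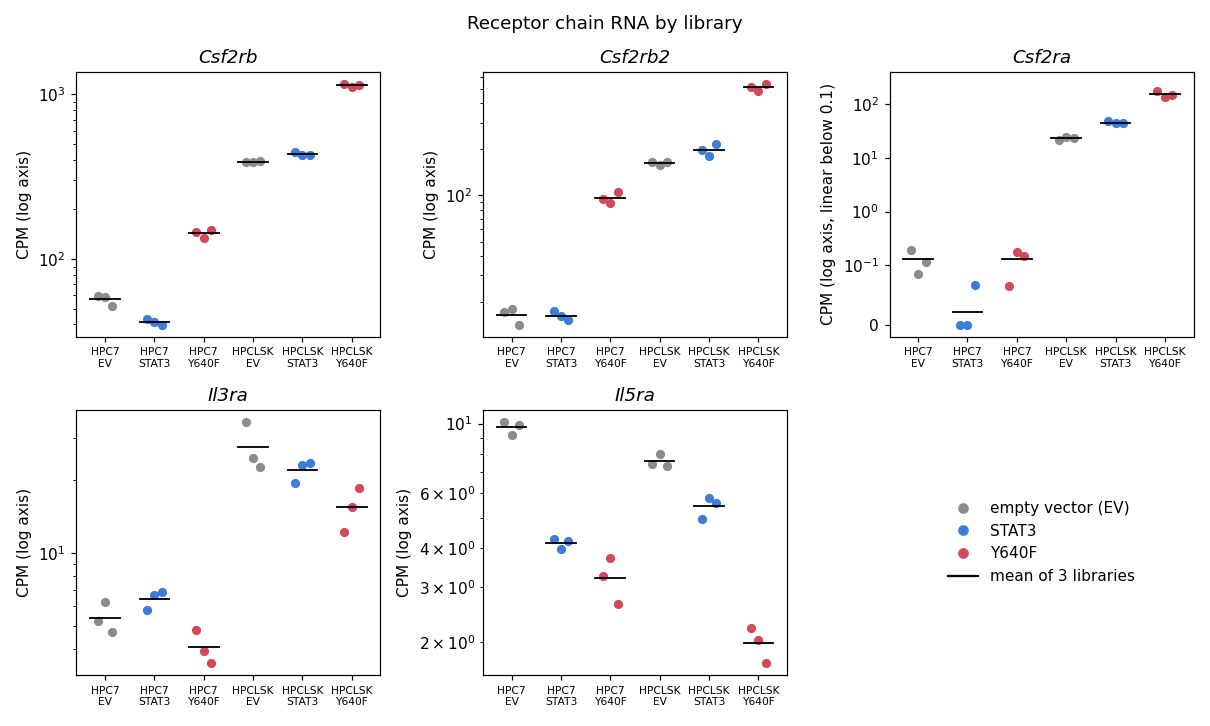
CPM of the 5 receptor chain genes in each of the 18 libraries (log axes, linear below 0.1 for Csf2ra), with points for libraries, colours for the vector and a line at the mean of 3. Both beta chain genes are highest with Y640F in each line, Csf2ra is above 20 CPM in HPCLSK and below 0.2 CPM in HPC7, and Il5ra is lowest with Y640F.

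The common beta chain gene Csf2rb was higher with Y640F in both lines, by 2.56-fold in HPC7 and 2.95-fold in HPCLSK. In HPC7 the 3 libraries read 59.7, 59.1 and 51.8 CPM with EV, 42.9, 41.4 and 39.8 with STAT3, and 145, 134 and 151 with Y640F. No group overlapped another: every Y640F library was above every EV library, and every STAT3 library was below. The log2 fold change was 1.36 ± 0.06 (SE) for Y640F against EV (edgeR adjusted p = 1.2e-09), 1.81 ± 0.06 for Y640F against STAT3 (9.5e-11) and −0.46 ± 0.06 for STAT3 against EV (5.3e-05), the last short of a 2-fold change and not called. In HPCLSK the libraries read 387, 386 and 392 CPM with EV, 446, 428 and 431 with STAT3, and 1159, 1113 and 1137 with Y640F. These groups did not overlap either, although STAT3 and EV lay close together. Here the log2 fold change was 1.56 ± 0.04 against EV (9.3e-09) and 1.39 ± 0.04 against STAT3 (4.0e-08), and STAT3 against EV gave 0.17 ± 0.04 (0.025, not called). Between the lines the STAT3 response of Csf2rb differed by 0.62 ± 0.08 on the log2 scale (HPCLSK minus HPC7, edgeR adjusted p of the interaction 4.2e-06), short of the size for a call. The Y640F response differed by 0.21 ± 0.07 (0.023, not called), by 0.07 with library totals as the sole scaling and by −0.13 with the counts of both beta chain genes summed.

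Csf2rb2, the IL-3-specific beta chain, rose with Y640F by 5.96-fold in HPC7 and 3.17-fold in HPCLSK. Its HPC7 libraries read 17.4, 17.99 and 14.3 CPM with EV, 17.7, 16.2 and 15.3 with STAT3, and 95.2, 89.8 and 105 with Y640F. EV and STAT3 overlapped, and all Y640F libraries lay far above both. The log2 fold change for Y640F was 2.58 ± 0.09 against EV (edgeR adjusted p = 1.1e-10, 70th highest of 12683 genes) and 2.58 ± 0.09 against STAT3 (7.3e-11). STAT3 against EV gave −0.00 ± 0.10 for Csf2rb2 (adjusted p = 0.99). In HPCLSK, the libraries read 165, 157 and 167 CPM with EV, 198, 182 and 218 with STAT3, and 515, 485 and 537 with Y640F. Again no Y640F library overlapped the other groups. The log2 fold change of Csf2rb2 was 1.66 ± 0.07 against EV (5.0e-08) and 1.37 ± 0.07 against STAT3 (2.5e-07), while STAT3 against EV gave 0.30 ± 0.07 (0.016, not called). The difference between the lines, HPCLSK minus HPC7, was −1.19 ± 0.11 for Y640F against STAT3 (1.2e-07, called), and −0.68, not called, with the counts of both beta chain genes summed. For Y640F against EV it was −0.90 ± 0.11 (2.9e-06), short of a 2-fold difference. That value passed by the adjusted p alone, against a fold of 1.5, and with library totals as the sole scaling (−1.04).

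The mix of beta chain RNA differed between vectors mainly in HPC7. Of the counts on the beta chain pair, Csf2rb2 held 22.6%, 23.3% and 21.6% in the EV libraries, 29.2%, 28.1% and 27.7% for STAT3, and 39.6%, 40.1% and 41.0% for Y640F. The 3 HPC7 groups did not overlap, and the means were 22.5% ± 0.87, 28.4% ± 0.74 and 40.2% ± 0.72 (SD, n = 3). In HPCLSK the shares were 29.9%, 29.0% and 29.8% with EV, 30.8%, 29.8% and 33.6% for STAT3, and 30.8%, 30.3% and 32.1% for Y640F. The HPCLSK means were 29.6% ± 0.51, 31.4% ± 2.00 and 31.1% ± 0.91, and the STAT3 libraries overlapped both other groups, while each Y640F library was above each EV library. A two-sided exact permutation test of 3 libraries against 3 cannot go below p = 0.1, which all HPC7 contrasts, Y640F against EV in HPCLSK and EV between the lines reached (adjusted p = 0.14 over 7 contrasts). HPCLSK gave an exact p = 0.3 for STAT3 against EV and p = 0.9 for Y640F against STAT3. The widest Clopper-Pearson 95% interval of a single library, 25.6% to 30.0% in STAT3 replicate 3 of HPC7, covers counting error only. Reads from stretches identical in the 2 genes may be missing from both or split between them, and with their counts summed the log2 fold change of Y640F against EV was 1.73 in HPC7 and 1.59 in HPCLSK.

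**Figure D2:**
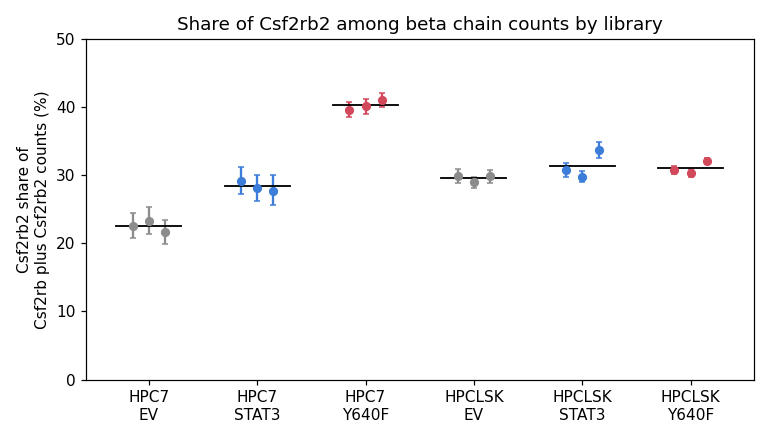
Share of Csf2rb2 in the counts of Csf2rb plus Csf2rb2 in each library, in percent, with 95% Clopper-Pearson intervals as bars and the mean of 3 libraries as a line. In HPC7 the share goes from 22.5% with EV to 28.4% with STAT3 and 40.2% with Y640F, while the HPCLSK libraries lie between 29.0% and 33.6%.

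Csf2ra, the GM-CSF-specific alpha chain, had the largest EV difference between the lines among the 5 genes. In HPC7 it had 5, 2 and 4 counts in the EV libraries, 0, 0 and 2 with STAT3, and 2, 6 and 6 with Y640F, and it was not tested there. Over the group, STAT3 to EV gave a CPM ratio of 0.152 with an exact binomial counting interval of 0.0164 to 0.698, and Y640F to EV gave 1.02 with an interval of 0.432 to 2.49. Y640F to STAT3 gave 6.71 with an interval of 1.54 to 60.9, from 14 counts against 2. In HPCLSK the libraries read 21.9, 24.9 and 23.9 CPM with EV, 48.2, 44.3 and 43.9 for STAT3, and 176, 134 and 146 for Y640F. No HPCLSK group overlapped another. Csf2ra rose with Y640F by 2.70 ± 0.10 on the log2 scale against EV (a 6.48-fold rise, adjusted p = 4.0e-08) and by 1.75 ± 0.10 against STAT3 (5.0e-07). STAT3 against EV gave 0.95 ± 0.10 (1.9e-04), a 1.93-fold difference just short of the call. Without the pair of libraries that stood apart, the Y640F value against EV was 2.51 and that of STAT3 was 0.90.

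Il3ra, the IL-3-specific alpha chain, had lower mean levels with Y640F than with EV in both lines, but was called in no comparison within a line. In HPC7 its libraries read 5.21, 6.24 and 4.72 CPM with EV, 5.82, 6.67 and 6.89 with STAT3, and 4.81, 3.91 and 3.50 with Y640F. Y640F overlapped EV and lay below all STAT3 libraries. The log2 fold change of Il3ra was −0.38 ± 0.14 for Y640F against EV (0.033), −0.65 ± 0.14 against STAT3 (0.0011) and 0.27 ± 0.13 for STAT3 against EV (0.11). In HPCLSK it read 34.8, 24.7 and 22.7 CPM with EV, 19.4, 23.05 and 23.5 with STAT3, and 12.2, 15.5 and 18.6 with Y640F. STAT3 overlapped EV, and every Y640F library lay below every library of the other groups. The highest EV value of Il3ra is in replicate 1 and the lowest Y640F value is in replicate 1, the libraries that stood apart. The log2 fold change for Y640F against EV was −0.80 ± 0.18 (0.0030) with them and −0.48 without them, against STAT3 −0.50 ± 0.18 (0.041), and for STAT3 against EV −0.30 ± 0.18 (0.31), or −0.10 without them. Y640F against STAT3 was −0.38 without them. The line difference in the Il3ra response to Y640F against EV was −0.40 with them and −0.08 without them, that of Y640F against STAT3 was 0.17 and 0.31, and neither was called.

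Il5ra, the IL-5-specific alpha chain, fell with Y640F in both lines. In HPC7 the libraries read 10.1, 9.19 and 9.93 CPM with EV, 4.26, 3.98 and 4.202 with STAT3, and 3.24, 3.70 and 2.65 with Y640F, without overlap between groups. Against EV, Il5ra fell by 1.60 ± 0.12 on the log2 scale with Y640F (9.4e-08) and by 1.23 ± 0.11 with STAT3 (1.1e-06), and the forms differed by −0.36 ± 0.13 (0.028, not called). In HPCLSK the libraries read 7.43, 7.98 and 7.34 CPM with EV, 4.96, 5.80 and 5.57 with STAT3, and 2.22, 2.02 and 1.71 with Y640F, again without overlap. Here Y640F gave −1.93 ± 0.15 against EV (2.0e-06) and −1.47 ± 0.15 against STAT3 (2.5e-05), and STAT3 gave −0.47 ± 0.13 (0.040, not called). The line difference of Y640F against STAT3 was −1.09 ± 0.20 for Il5ra (1.8e-04, called); it was −0.97 without HPC7 Y640F replicate 2 and −0.9916 without HPCLSK Y640F replicate 3, below the size for a call. Counts of Il5ra were few, from 31 to 341 per library.

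**Figure D3:**
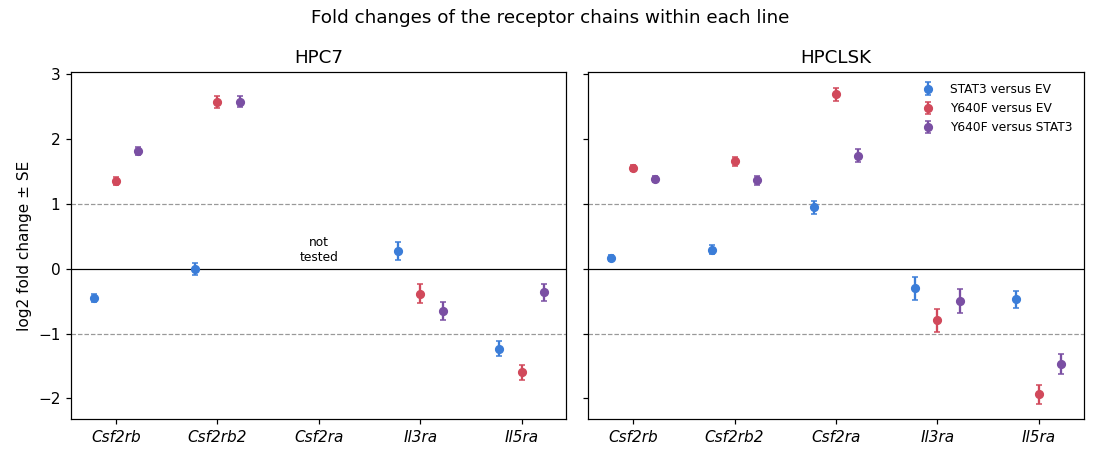
Log2 fold change with its SE for each receptor chain in the 3 comparisons of each line, with dashed lines at the call threshold of 1 and −1. The beta chains and, in HPCLSK, Csf2ra lie above 1 with Y640F, Il5ra lies below −1 against EV in both lines, and Csf2ra was not tested in HPC7.

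In counts, Y640F against EV called 2 members higher (Csf2rb and Csf2rb2) and 1 lower (Il5ra) of 4 tested in HPC7, where 8.18% of all tested genes were called, and 3 higher and 1 lower of 5 in HPCLSK, where 16.2% were. Y640F against STAT3 called 2 higher and 0 lower of 4 in HPC7 (all genes 7.89%) and 3 higher and 1 lower of 5 in HPCLSK (14.2%). STAT3 against EV called 0 higher and 1 lower of 4 in HPC7 (7.22%), and in HPCLSK 0 of 5 by edgeR (4.6%), of which 4 had an unadjusted p under 0.05, and 0 by DESeq2. The median log2 fold change of the tested members with Y640F against EV was 0.49 in HPC7 and 1.56 in HPCLSK, beside 0.00 and −0.01 over all tested genes.

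Before any STAT3 vector, the lines already differed in this family. With EV, HPCLSK was above HPC7 by 2.77 ± 0.06 on the log2 scale for Csf2rb (1.5e-18), 3.31 ± 0.09 for Csf2rb2 (8.5e-17), 2.35 ± 0.17 for Il3ra (2.6e-10) and 7.43 ± 0.23 for Csf2ra (4.9e-16), the last against 11 counts in HPC7. Il5ra gave −0.36 ± 0.11 (0.0077, not called). Thus 4 of 5 members were called, all higher, where 36.4% of all genes were called. With Y640F, Csf2rb in HPC7 reached 143 ± 8.49 CPM, still below the 388 ± 3.16 CPM of HPCLSK with EV. Of the line differences in response, 1 member of 5 (Csf2ra) was called for STAT3 against EV, beside 8.25% of all genes, and again 1 of 5 (Csf2ra) for Y640F against EV, beside 15%. For Y640F against STAT3 it was 2 of 5 (Csf2rb2 and Il5ra), beside 12.5%. The Csf2ra values, 3.38 ± 0.93 (0.0088) and 2.65 ± 0.71 (0.0044), rest on 2 to 14 counts per group in HPC7, and the first passed no longer without HPC7 EV replicate 1 (3.05, adjusted p = 0.052).

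Levels of different genes were compared per length, as TPM, in which counts are divided by gene length and each library is scaled to the same sum. In HPC7 with EV the order was Csf2rb at 43.6 ± 3.69 TPM, then Il3ra at 14.1 ± 2.19, Csf2rb2 at 13.1 ± 1.69, Il5ra at 9.95 ± 0.41 and Csf2ra at 0.26 ± 0.11; Il3ra and Csf2rb2 were not separated beyond their spread. In HPCLSK with EV it was Csf2rb at 297 ± 3.10 TPM, Csf2rb2 at 129 ± 4.26, Il3ra at 71.6 ± 17.1, Csf2ra at 46.4 ± 2.91 and Il5ra at 7.73 ± 0.32. With Y640F in HPCLSK, Csf2rb reached 753 ± 8.87 TPM, which put it at percentile 99.38 of the 20162 genes with counts, and Csf2ra at 259 ± 30.2 TPM passed Il3ra at 35.1 ± 7.996. Of the summed TPM of the alpha chains in HPCLSK, Il3ra held 56.5% ± 6.75 with EV, 37.7% ± 3.48 with STAT3 and 11.996% ± 3.20 with Y640F, and Csf2ra 37.3% ± 6.02, 58.7% ± 3.71 and 87.4% ± 3.19. The alpha chain RNA of HPCLSK thus went from mostly Il3ra to mostly Csf2ra. These values include the replicate 1 libraries that stood apart. In them Il3ra read 91.2 TPM with EV, beside 64.2 and 59.4 in the other replicates. With Y640F it read 26.8 TPM, beside 35.9 and 42.7. In HPC7, Il3ra held 57.8% ± 4.64, 79.7% ± 1.75 and 75.0% ± 3.67 and Il5ra nearly all the rest. Beta chain TPM (both genes) to Il3ra TPM stood at 4.04 ± 0.37, 2.66 ± 0.37 and 17.8 ± 3.50 in HPC7 with EV, STAT3 and Y640F, and at 6.15 ± 1.33, 8.59 ± 1.05 and 32.5 ± 7.24 in HPCLSK. Beta to Csf2ra in HPCLSK went the other way, from 9.20 ± 0.67 to 5.48 ± 0.30 and 4.30 ± 0.51.

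**Figure D4:**
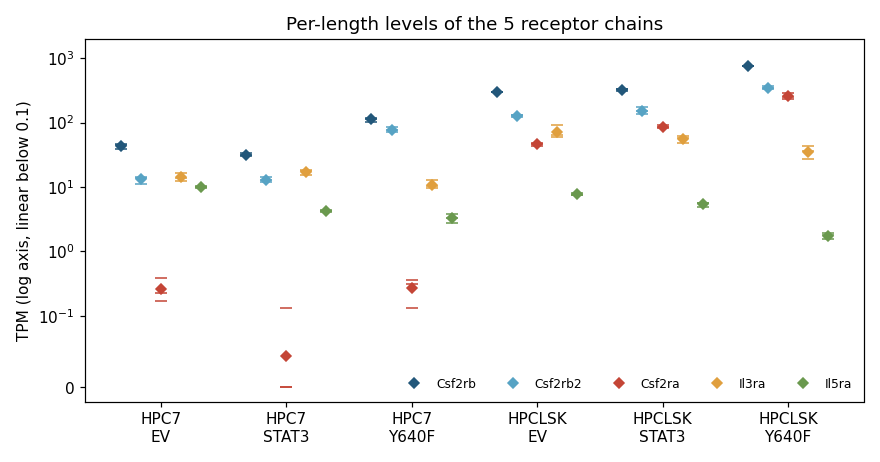
TPM of each receptor chain by group (log axis, linear below 0.1), with dashes for the 3 libraries and a diamond at their mean. In HPCLSK the order of Il3ra and Csf2ra changes from 71.6 above 46.4 TPM with EV to 35.1 below 259 TPM with Y640F.

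The ligand genes were near the detection limit. Il3 had 0 counts in all 18 libraries, which over a group allows up to 0.0697 CPM (3 counts, counting error only), and Il5 had 0 to 4 counts per group. Csf2, which encodes GM-CSF, had 0, 1 and 3 counts with EV, 12, 10 and 11 with STAT3 and 18, 31 and 33 with Y640F in HPC7. All HPC7 libraries with either form of STAT3 were above all EV libraries, at no more than 0.926 CPM. The fitted log2 fold change of Csf2 was 3.95 ± 0.50 for Y640F against EV (1.4e-05), 2.70 ± 0.60 for STAT3 against EV (0.0020) and 1.26 ± 0.31 for Y640F against STAT3 (0.0043), resting on 4 counts in the EV group. In HPCLSK, Csf2 had 0 counts with EV, 0 with STAT3 and 1 with Y640F.

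Among 21 genes that act next to the receptor (kinases, adaptors, phosphatases and the STAT5 pair), none of 20 tested was called with Y640F against EV in HPC7, and 3 were called higher and 1 lower of 21 in HPCLSK, beside 8.18% and 16.2% of all genes called. The list median of log2 fold changes was −0.03 and 0.13, beside 0.00 and −0.01 over all genes. Jak2, the kinase held by the beta chain, gave 0.57 in HPC7 and 0.40 in HPCLSK, and neither was called. In HPCLSK, Ptpn6, which encodes the phosphatase SHP-1, rose by 1.53 ± 0.08 (edgeR adjusted p = 1.4e-07), from 257 to 276 CPM with EV to 699 to 833 with Y640F, and Fyn fell by 1.19 ± 0.09 (2.1e-06).

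Of 20 genes known as STAT5 targets or feedback regulators of cytokine receptors, several of them also known STAT3 targets, 7 were called higher and 1 lower of 18 tested in HPC7 with Y640F against EV (median 0.86), and 7 higher and 3 lower of 20 in HPCLSK (median −0.10). Over all genes, 8.18% and 16.2% were called and the medians were 0.00 and −0.01. Socs3, a feedback inhibitor of JAK signalling, rose by 2.34 ± 0.10 in HPC7 (9.9e-10), from 2.74 to 3.43 CPM with EV to 14.9 to 16.3. Its HPCLSK libraries also read higher, at 182 to 220 CPM with Y640F beside 22.7 to 34.5 with EV. In HPC7, Lif, at no more than 1.15 CPM, rose by 1.97 ± 0.34 (2.1e-04) and Dusp5, a MAP kinase phosphatase, fell by 1.89 ± 0.22 (6.8e-06). Dusp5 there was at 3.14 to 5.21 CPM with EV, 0.94 to 1.16 with STAT3 and 0.90 to 1.32 with Y640F. In HPCLSK, Id2, an inhibitor of basic helix-loop-helix factors, rose by 3.77 ± 0.22 (3.9e-07), while Ccnd2 fell by 3.34 ± 0.15 (8.8e-08) and Ccnd1, at no more than 1.83 CPM, rose by 3.29 ± 0.45 (1.1e-04).

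Expression of 6 other genes that start within 200 kb of the beta chain pair was set beside it. Ncf4, an NADPH oxidase subunit of phagocytes, was at 57.2 ± 6.07 CPM with EV and 59.5 ± 1.46 with Y640F in HPC7 (0.08 ± 0.06, adjusted p = 0.30), and at 71.4 ± 6.80 and 196 ± 35.4 CPM in HPCLSK (1.46 ± 0.14, 1.1e-05). The line difference in the Ncf4 response was 1.39 ± 0.17 (1.3e-06). Kctd17 was called higher in HPCLSK (1.67 ± 0.24, 1.6e-04) and had 1 to 3 counts per group in HPC7. With STAT3 against EV it was called lower in HPCLSK (−2.82 ± 0.38, edgeR adjusted p = 7.6e-04), unlike Csf2rb (0.17) and Csf2rb2 (0.30). Ift27, Tst and Mpst were called in neither line with Y640F against EV, with log2 fold changes from −0.18 to 0.21, and C1qtnf6 had 0 counts in HPCLSK and 0.23 ± 0.18 in HPC7. Over all tested genes of chromosome 15 the median log2 fold change was −0.05 in HPC7 and 0.03 in HPCLSK. On chromosomes 14 and 6, which hold Il3ra and Il5ra, the HPC7 median with Y640F against EV was −0.07 each. Chromosome 19, which holds Csf2ra, had HPC7 medians of 0.24 for Y640F and 0.10 for STAT3 against EV. There 70.2% and 63.9% of 440 genes read higher. In HPCLSK its medians were 0.05 and 5e-04. Whether this bears on the Csf2ra values was not tested.

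**Figure D5:**
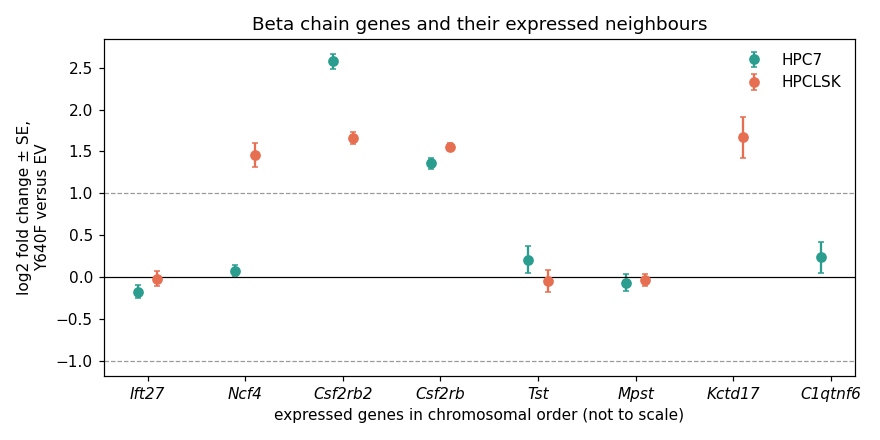
Log2 fold change with its SE for Y640F against EV of the beta chain genes and the 6 expressed genes around them, in chromosomal order and not to scale, with dashed lines at 1 and −1. In HPC7 only Csf2rb2 and Csf2rb lie above 1, and in HPCLSK Ncf4 and Kctd17 do so as well.

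Markers of mature blood cells also differed between the HPCLSK groups, beside a median of −0.01 and 16.2% called over all genes with Y640F against EV. Of 11 tested monocyte and macrophage genes, 9 were called higher with Y640F against EV and 0 lower (median 2.54), and their summed level went from 1178 to 1443 CPM with EV and 1244 to 2230 with STAT3 to 7299 to 10324 with Y640F. Csf1r, the receptor of macrophage colony-stimulating factor, rose by 3.48 ± 0.41 (4.3e-05), Cd14, a lipopolysaccharide co-receptor, by 3.88 ± 0.29 (1.8e-06) and Cx3cr1 by 4.18 ± 0.35 (3.5e-06); Ly86 was at 0 in the Y640F libraries. Granulocyte genes were mixed with Y640F against EV, with 5 higher and 3 lower of 14 (median 0.17). Mmp8, a neutrophil collagenase, rose by 7.22 ± 0.26 (3.3e-08), while Ltf, which encodes lactoferrin, fell by 2.05 ± 0.62 (0.015) and Camp and Ngp were the others called lower. The granulocyte list summed to 8467 to 13108 CPM with EV, 15024 to 22567 with STAT3 and 14039 to 18705 with Y640F. With STAT3 against EV, 9 of its 14 genes were called higher and 0 lower (median 1.97), where 4.6% of all genes were called. Mast cell, basophil and eosinophil genes summed to 4752 to 6553 CPM with EV, 3656 to 3704 with STAT3 and 1249 to 1765 with Y640F. Their median log2 fold change was 0.26, although the sum was lower with Y640F. Of 9 of them tested, 4 were called lower, among them Ms4a2, the beta subunit of the IgE receptor (−2.97 ± 0.26, 5.5e-06), and 2 higher, Prg2 (5.68 ± 1.15, 0.0016) and Prss34 (4.40 ± 0.42, 9.8e-06); Tpsab1 was at 0. Ms4a2 was also low with STAT3, at 86.7 to 136 CPM, beside 750 to 1196 with EV and 79.7 to 156 with Y640F. The part of these cell type genes in the receptor chain changes of HPCLSK was not tested.

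In HPC7 the same monocyte list summed to 36.9 to 40.8 CPM with EV, 19.0 to 20.7 with STAT3 and 53.3 to 55.4 with Y640F, and 2 of 8 tested genes were called higher and 1 lower (median 0.19, beside 0.00 and 8.18% called over all genes). F13a1 gave 5.11 ± 0.48 (9.6e-07) at no more than 2.55 CPM, and Ly86 and Ms4a6c were at 0. With STAT3, F13a1 was at 1.08 to 1.28 CPM. Granulocyte genes in HPC7 summed to 377 to 715 CPM with EV and 140 to 162 with Y640F, with 6 of 7 tested called lower (median −1.87) and Mmp8, Ly6g and Fcnb at 0. With STAT3 the granulocyte list summed to 285 to 309 CPM. Against EV, 6 of 7 were then called lower (median −1.11), where 7.22% of all genes were called. Of the 15 listed genes, 7 passed the filter on low counts. A gene could pass on its EV level alone, so both counts favour genes that were high with EV. S100a8 was at 0.31 to 0.51 CPM with EV, and at no more than 0.10 with STAT3 and 0.03 with Y640F. Cebpe was at 0.61 to 0.73 CPM with EV, and at no more than 0.37 and 0.20. The mast cell list summed to 378 to 523 CPM with EV and 544 to 557 with Y640F (1 of 4 called higher, median 0.21), with Fcer1a, Mcpt8 and Prss34 at 0. Whether these shifts contribute to the HPC7 receptor values was not tested. Kit, the receptor of stem cell factor and a marker of both lines' labelled cell type, was at 1234 to 1316 CPM in HPC7 and 690 to 829 in HPCLSK with EV; in HPCLSK it fell with Y640F by 1.51 ± 0.09 (5.1e-07). Of the 14 progenitor genes, Hoxa9 was at 0 in HPC7 and all had counts in HPCLSK. The T and NK cell list summed to 12.7 to 15.9 CPM in HPC7 and 242 to 262 in HPCLSK with EV, of which Nkg7 held 237 to 256 in HPCLSK, and Cd3e was at 0 in both lines. The B cell list summed to 6.75 to 6.99 and 2.14 to 3.27 CPM, with Pax5 at 0, and the fibroblast list to 69.9 to 81.1 and 153 to 197 CPM, with Col3a1 at 0. Of the 8 fibroblast genes, 7 had 0 counts in HPC7 with EV, all but Pdgfrb, and 5 had 0 counts in HPCLSK with EV.

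Over the 18 libraries, the log2 CPM of Csf2rb and Csf2rb2 had a Pearson r of 0.98, that of Csf2rb and Csf2ra 0.95, and that of Csf2rb and Il5ra −0.44. These values describe 18 libraries in 6 groups that share line and vector. The genes most like Csf2rb were Parp10, Slfn2 and Abhd5 (r from 0.9905 to 0.9908), those most like Csf2rb2 were Socs3, Nfe2l2 and Tgm1 (0.982 to 0.985), and those most like Csf2ra were Cybb, Lyz2 and Xdh (0.995), among 11736 candidates. Il3ra was closest to Tbc1d9b, Ifi47 and Calr (0.983 to 0.984) and Il5ra to Sesn1, Pabpc1 and Adi1 (0.927 to 0.933).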

How the data were processed

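RNA of 18 libraries was analysed. Reads were assigned to genes by the authors, per the file headers, with featureCounts 1.5.1 (strand setting 2, exons per gene, GENCODE M13) on STAR alignments to GRCm38, and the submitters' processing notes name Trimmomatic. The deposited values are raw counts per gene, and the deposited gene length, another value per gene, was used for TPM. The labels name 2 different library kits. Symbols matched 50376 of 50686 identifiers.

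Counts were compared with edgeR 4.0.16 in R 4.3.3 (filterByExpr, TMM, quasi-likelihood test, Benjamini-Hochberg over all tested genes), within a line over 9 libraries (6 residual degrees of freedom) and between lines over 18 (12). SE is the log2 fold change over the root of its F. The scripts were tested on simulated data. The Csf2rb2 shares, their intervals and the permutation test were computed in R, and the counting intervals of Csf2ra with scipy 1.17.1. DESeq2 1.42.0, other scalings, filters, fits and left-out libraries were alternatives.

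The members, lists and tests were chosen with earlier results of these data known. Named genes are the members, ligands, Stat3, genes of at least 1 CPM in 3 libraries starting within 200 kb of the beta pair, up to 3 called genes per list with the largest change with Y640F against EV in each line, and 3 genes of most similar pattern per member (log2 CPM, prior count 2). Jak2, Kit in HPC7, Ltf, Camp, Ngp and markers at 0 were added after their values were seen. Some genes that this rule names are not reported here.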

Additional observations from a re-analysis of the deposited data

Results flagged for a closer look

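The line difference (HPCLSK minus HPC7) in a member's response passed the call threshold in 4 cases, each by the edgeR interaction term with adjustment over 13891 genes. For Csf2ra it was 3.38 (log2) for STAT3 against EV and 2.65 for Y640F against EV, where HPC7 held 2 to 14 counts per group. For Csf2rb2 it was −1.19 for Y640F against STAT3: the change was 2.58 in HPC7 and 1.37 in HPCLSK, and all 3 Y640F libraries were above all STAT3 libraries in each line. With both beta chain genes summed it was −0.68 and not called. For Il5ra it was −1.09 for Y640F against STAT3, from −0.36 in HPC7 and −1.47 in HPCLSK. Stat3 RNA itself had a line difference of 2.24 for Y640F against STAT3. Beyond the chi-square comparison of replicates and the left-out libraries, groups of 3 libraries were not screened for single outlying values of a gene.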

How the results depend on the processing

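Over 877 recomputed values of the members, 847 kept their direction and side of the call threshold, and 0 called values changed direction. The 7 changes of sign were of values that were not called. Csf2rb2 for STAT3 against EV in HPC7 was 0.0062 with no low-count filter and −0.112 to 0.0606 on leaving out single libraries. The line difference in Csf2rb for Y640F against EV was −0.13 with the beta chain counts summed, which by construction gives both genes the same value, and that of Csf2rb2 for Y640F against STAT3 was then −0.68 and not called. On leaving out single libraries, or the pair that stood apart, the line difference of Y640F against STAT3 ran from −5e-04 to 0.31 for Il3ra and from −1.22 to −0.97 for Il5ra, and that of STAT3 against EV from 2.82 to 5.65 for Csf2ra.

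With the adjusted p alone as the rule, the counts of called genes rose to 6165, 7263 and 6488 in HPC7 (STAT3 against EV, Y640F against EV, Y640F against STAT3), 1766, 7349 and 6756 in HPCLSK, 11193 for EV between the lines, and 4218, 6755 and 6289 for the line differences, from 916, 1038, 1001, 577, 2032, 1783, 5054, 1146, 2082 and 1734. Values under the 2-fold size that then passed were Csf2rb −0.46 for STAT3 against EV in HPC7, Il3ra −0.38 for Y640F against EV and −0.65 against STAT3, and Il5ra −0.36 against STAT3. In HPCLSK they were Csf2rb 0.17, Csf2rb2 0.30, Csf2ra 0.95 and Il5ra −0.47 for STAT3 against EV, and Il3ra −0.80 and −0.50 for Y640F against EV and STAT3. Between lines they were Il5ra −0.36 for EV, Csf2rb 0.62 and Il5ra 0.76 for STAT3 against EV, Csf2rb 0.21 and Csf2rb2 −0.90 for Y640F against EV, and Csf2rb −0.41 for Y640F against STAT3. Against a fold of 1.5, Csf2ra (0.95, HPCLSK) and the Csf2rb2 line difference (−0.90) also passed, the latter also with library totals alone (−1.04). Library totals alone moved the median of all genes by −0.12 for Y640F against EV in HPCLSK and by −0.14 in both line differences with Y640F.

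Same-numbered libraries did not deviate together (correlations −0.07 to 0.04 in HPC7 and −0.15 to 0.07 in HPCLSK), so the numbers were not taken as pairs. With the replicate block the counts were 923, 1035, 1002, 548, 2019, 1761, 5055, 1085, 2038 and 1675, and no member's call changed. Counts limit the precision of Csf2ra in HPC7, at 0 to 6 per library, and of Csf2 in HPC7, at 0 to 33.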

Other observations

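Over all tested genes, 8.18% were called with Y640F against EV in HPC7 and 16.2% in HPCLSK, with median log2 fold changes of 0.00 and −0.01. Of 9 tested erythroid genes in HPC7, 6 were called higher, 0 lower and 3 not (median 1.14), while the summed level of the list overlapped, at 718 to 814 CPM with EV and 805 to 845 with Y640F. Gata1, the erythroid and megakaryocyte transcription factor, rose by 1.40 ± 0.14 (edgeR adjusted p = 1.9e-06), from 8.29 to 12.9 CPM with EV to 22.4 to 28.2. Slc4a1 rose by 1.86 ± 0.63 (0.022) at no more than 0.55 CPM. In HPCLSK 0 of 4 tested erythroid genes were called higher and 1 lower (median −0.50).

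Among progenitor genes, Ly6a, which encodes the stem cell antigen Sca-1, rose with Y640F by 3.20 ± 0.22 in HPC7 (5.8e-08) and by 3.68 ± 0.14 in HPCLSK (4.0e-08). In HPC7 2 of 13 were called higher and 2 lower (median 0.25), with Cd34 at −1.64 ± 0.06 (3.1e-10) and Lmo2 at 1.60 ± 0.08 (4.2e-09). Cd34 in HPC7 was lower still with STAT3, at 40.6 to 42.2 CPM, beside 177 to 204 with Y640F and 555 to 652 with EV. In HPCLSK 3 of 14 were called higher and 4 lower (median −0.30), with Hoxa9 at −2.82 ± 0.18 (6.7e-07). Hoxa9 in HPCLSK was also low with STAT3, at 14.2 to 15.8 CPM, beside 138 to 156 with EV and 13.9 to 27.5 with Y640F. Of the megakaryocyte genes, 1 higher and 1 lower of 8 were called in HPC7 (median 0.06) and 1 higher and 4 lower of 7 in HPCLSK (median −1.16). Nkg7 was called lower in both lines, at −1.48 ± 0.18 and −3.28 ± 0.23. In HPC7 Nkg7 was at 2.43 to 3.55 CPM with EV, 1.13 to 1.34 with STAT3 and 1.00 to 1.05 with Y640F. It was the only called gene of 2 tested T and NK cell genes in HPCLSK, and 1 other, Cd4, was called higher of 3 in HPC7. Of the B cell genes, 0 of 1 was called in HPC7 and 1 of 2, Cd79b, lower in HPCLSK. The single fibroblast gene tested in each line was not called.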
